A study of Mus musculus with 9 samples.

Results

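Metastatic and non-metastatic mammary tumours of MMTV-Wnt1 mice were compared across genes. The comparison used 6 of the 9 arrays in the series, 3 from each tumour group, chosen by their sample titles, and covered 17478 genes of 22180 with a single symbol. The other 3 arrays, from normal mammary glands, entered the statistical fit only for its estimate of the spread and are given as a reference level. All mice were FVB females. Tumour-bearing mice had the genotype Wnt1+/-, carrying a transgene in which the mouse mammary tumour virus promoter, active mainly in mammary epithelium, drives Wnt1. The glands came from littermates labelled wild-type for Wnt1. Mice of both genotypes drank 6% sucrose containing doxycycline at 200 ug/ml from 6 weeks of age, so this treatment was common to every array. Tumours were taken when they measured 20 mm, and RNA came from frozen pieces of tissue. The mice of non-metastatic tumours 1, 2 and 3 were 354, 222 and 298 days old at collection, and those of metastatic tumours 1, 2 and 3 were 300, 281 and 284 days old. Age at tumour onset was 306, 192 and 247 days in the non-metastatic and 251, 194 and 242 days in the metastatic group. From onset to collection, metastatic tumour 2 took 87 days and the other tumours 30 to 51 days. The part of this interval in the results was not tested. The normal glands came from mice of 533 to 556 days. The site and the number of metastases are not given in the sources used here, and every array is labelled as mammary tissue.

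Wnt1 is a secreted ligand that binds Frizzled and LRP receptors and stabilises beta-catenin, which turns on target genes together with TCF/LEF factors. The mammary epithelium has an inner luminal layer, made of hormone-sensing cells and milk-secreting cells, and an outer myoepithelial layer that contracts like smooth muscle. Tumours of MMTV-Wnt1 mice are known for holding cells of both layers. An array of a piece of tumour reads all these cells at the same time, together with stroma, vessels and immune cells, so in every comparison below fewer cells of a type and less RNA per cell cannot be told apart.

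Values are log2 RMA expression values, so a difference of 1 is a doubling, and each difference is the mean of the metastatic tumours minus the mean of the non-metastatic tumours. A gene passed the threshold at a Benjamini-Hochberg adjusted p under 0.05 in limma. Nothing in the labels says more of the replicates than that they are separate animals. Each of the 6 tumours had genes of its own, and the tumours differed in how many. Metastatic tumour 2 lay at least 1 log2 unit above all other tumours in 140 genes and below them in 96. Non-metastatic tumour 1 lay above in 127 and below in 67, and non-metastatic tumour 2 above in 66 and below in 70. Non-metastatic tumour 3 lay above in 80 and below in 4, while metastatic tumours 1 and 3 lay above in 51 and 46 and below in 0 and 7. Across genes, metastatic tumour 2 had its lowest correlation with non-metastatic tumour 2 (r = 0.916), and non-metastatic tumour 3 its highest with metastatic tumours 1 and 3 (r = 0.970 with each). These r values describe the arrays, since genes are not replicates. Results on many gene groups below are therefore given with the range they take when each tumour is left out. The gene lists were written with earlier results of these data known. Their counts beside the shares of all genes describe these arrays and are not independent support.

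**Figure D1:**
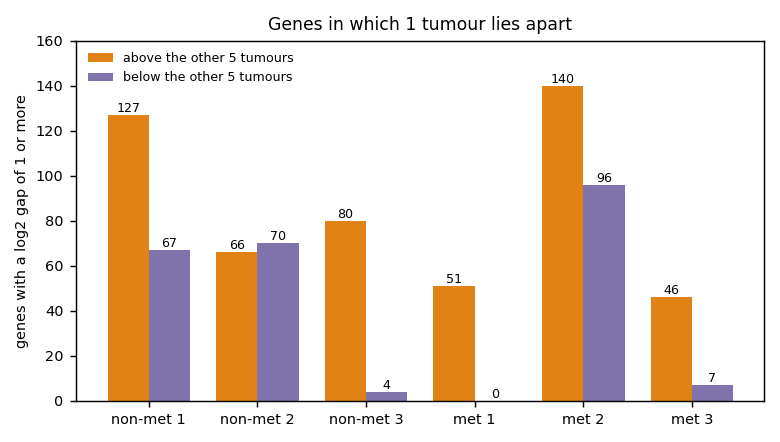
Number of genes (vertical axis) in which 1 tumour lay at least 1 log2 unit above (orange) or below (purple) all of the other 5, for each of the 6 tumours. The orange bars are highest for metastatic tumour 2 (140) and non-metastatic tumour 1 (127), and the purple bars for metastatic tumour 2 (96) and non-metastatic tumour 2 (70).

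Coch was the single gene past the threshold, 0.00572% of the genes tested. It encodes cochlin, a secreted matrix protein best known from the inner ear. Coch measured 7.07, 5.97 and 6.13 in non-metastatic tumours 1, 2 and 3 and 10.71, 10.68 and 10.32 in metastatic tumours 1, 2 and 3. All metastatic tumours lay more than 3 log2 units above all non-metastatic tumours, which overlapped with the normal glands (6.62, 6.07 and 5.84). Its difference was 4.18 (SE 0.31, limma adjusted p = 0.013), and over 20 alternative settings it stayed between 3.97 and 4.52. Some of these settings, such as leaving out a normal gland or changing only the filter, cannot move the difference. The adjusted p ranged from 0.0046 to 0.15 and passed in 15 of the 20. Coch missed the threshold when normal gland 2 was left out (adjusted p = 0.063), when metastatic tumour 1 (0.081) or 2 (0.14) was left out, and in both fits restricted to the 6 tumours (0.15, and 0.096 with age at collection as a covariate).

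The tumour groups overlapped in the product of the transgene itself. Wnt1 measured 12.40, 11.85 and 11.80 in non-metastatic tumours and 12.02, 11.20 and 12.04 in metastatic tumours, against 5.61, 5.45 and 5.71 in normal glands. Metastatic tumour 2 had the lowest Wnt1 value of the 6 tumours, and all tumours lay more than 5 log2 units above the glands. The difference was -0.26 (SE 0.25, limma adjusted p = 0.91). Without metastatic tumour 2 it was 0.012.

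Below the threshold, the large differences ran mostly upward in metastatic tumours. Among the genes tested, 298 (1.71%) were higher by 1 or more and 102 (0.584%) were lower by 1 or more. A difference above 0 was found in 7978 (45.6%). At an unadjusted p under 0.01 in limma, 140 genes (0.801%) were higher and 33 (0.189%) were lower, together 173 (0.99%). An unadjusted p under 0.05 in limma was found for 886 (5.07%). Both totals are near the share that their limit alone would give without any difference between the groups. The groups did not overlap in 771 genes that were higher (4.41%) and in 1021 that were lower (5.84%). Among genes that met both the 0.01 limit and the condition of no overlap, the 15 highest and 15 lowest differences are described next. None of these genes except Coch passed the adjusted threshold.

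The 15 highest included secreted proteins and receptors. Scgb1b27, a secretoglobin (small secreted proteins of glandular epithelia), measured 4.89, 5.09 and 4.55 in non-metastatic tumours and 10.40, 13.05 and 7.24 in metastatic tumours. The metastatic tumours were all above the others but spread over more than 5 log2 units, with metastatic tumour 2 on top. Ntrk3, the receptor tyrosine kinase for neurotrophin-3, measured 5.63, 6.10 and 6.66 against 8.51, 10.49 and 9.18, with a difference of 3.26 (SE 0.48). Its values in metastatic tumours lay around those of normal glands (8.87, 9.26 and 8.76), and the non-metastatic tumours lay below both. Adgrg2, an adhesion G protein-coupled receptor first described in the epididymis, measured 8.05, 7.43 and 7.22 against 9.66, 11.02 and 11.22. Here the non-metastatic tumours were near the normal glands (7.99, 8.45 and 7.39) and the metastatic tumours above both. Cxcl17, a mucosal chemokine, measured 7.26, 6.80 and 7.99 against 9.44, 11.36 and 8.50, and the gap between the groups was smaller than the spread within either. Nptx1, neuronal pentraxin, measured 5.52, 5.23 and 5.48 against 6.24, 9.61 and 8.27, a difference of 2.63 (SE 0.70) in which metastatic tumours 2 and 3 lay well above the rest.

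Other genes of the highest 15 are matrix, enzyme and transcription factor genes. Chad, the cartilage matrix protein chondroadherin, measured 7.81, 5.89 and 7.14 against 10.92, 9.38 and 8.39, the highest value being that of metastatic tumour 1. Mme, the cell surface peptidase neprilysin that marks mammary myoepithelial cells and stroma, measured 7.96, 6.93 and 8.42 against 9.89, 11.28 and 9.58. Its normal glands lay at 11.02, 10.82 and 10.10, so the non-metastatic tumours were the group away from normal tissue. Spon2, a secreted matrix protein, and Zfhx4, a zinc finger homeobox factor, shared a layout in which non-metastatic tumour 3 lay between the rest of its group and the metastatic tumours. Spon2 measured 5.99, 6.38 and 8.29 against 9.43, 9.71 and 9.57. Zfhx4 measured 5.78, 5.02 and 7.55 against 8.39, 9.28 and 8.57. Il17b, a cytokine of the interleukin-17 family, had the same layout, at 5.40, 5.36 and 8.71 against 9.40, 9.32 and 9.76. Chst9, a sulfotransferase, measured 3.84, 4.10 and 5.15 against 5.98, 8.04 and 6.24, with metastatic tumour 2 well above the rest. The filter on low values keeps a gene that exceeds it on only 3 arrays. Chst9 and Scgb1b27 were low in non-metastatic tumours and normal glands, so their metastatic values alone could bring them into the test. Foxa1, Cnn1 and Myh11, the remaining members, are given with their cell types below.

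The 15 lowest differences were smaller, from -1.17 to -0.45, and included immune, metabolic and housekeeping genes. Tnfsf8, the ligand of CD30, measured 6.85, 6.89 and 5.75 in non-metastatic tumours and 5.40, 5.26 and 5.32 in metastatic tumours. Smox, spermine oxidase of polyamine breakdown, measured 9.71, 10.04 and 8.91 against 8.60, 8.46 and 8.14. In both, non-metastatic tumour 3 was the member of its group nearest to the metastatic tumours. Il1rap, a co-receptor of interleukin-1, measured 9.60, 9.01 and 8.41 against 8.21, 7.57 and 7.91. Lrp8, the ApoE and reelin receptor, measured 8.50, 7.95 and 8.28 against 7.51, 6.93 and 7.36, and Mthfd1l, a mitochondrial folate enzyme, 7.60, 7.98 and 7.78 against 7.27, 6.92 and 6.96. For Mthfd1l the spread within each group was under 0.4 log2 units and the difference -0.74 (SE 0.13). Clec5a, a myeloid lectin receptor, measured 7.30, 7.00 and 6.96 against 6.56, 6.58 and 6.39. Psmd1, a subunit of the proteasome, measured 10.48, 10.32 and 10.28 against 10.14, 9.72 and 9.87, the smallest difference of the 15. The other 8 were Nr1h5, Nuak2, Lhfpl2, Sirpb1a, Tuba1b, Pnp, Cyrib and Ube2o, with differences between -0.90 and -0.46. Some of these were low signals beside array medians of 5.80 to 5.94. Pnp lay at 4.90 to 5.71 in the tumours and Tuba1b at 5.81 to 6.79.

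**Figure D2:**
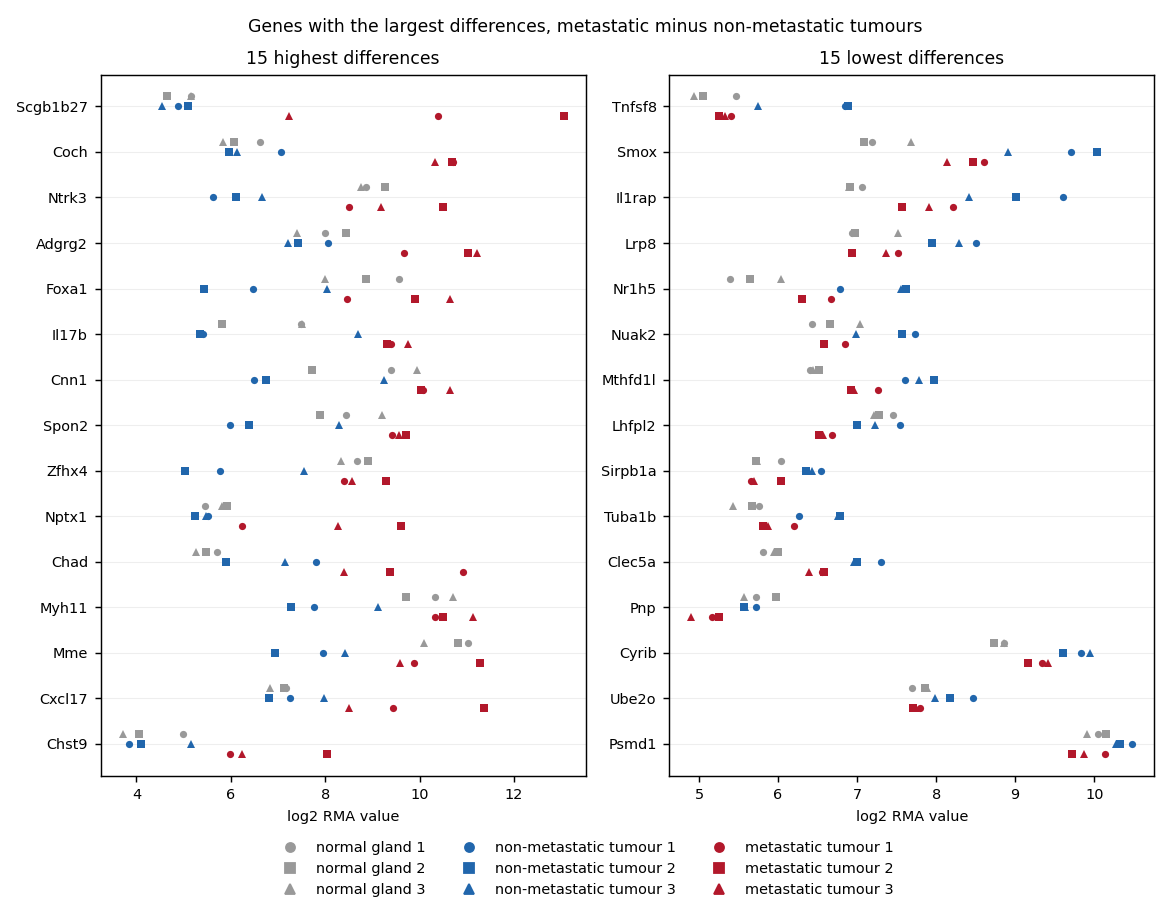
Log2 RMA values (horizontal axis) of the 15 genes with the highest (left) and the 15 with the lowest (right) difference, metastatic minus non-metastatic, among genes without overlap whose unadjusted p was under 0.01. Points are single arrays, coloured by group and shaped by replicate number. Coch is the gene whose metastatic values, 10.32 to 10.71, stand farthest from both other groups for their spread.

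The normal glands give these differences a reference point. The 0.01 limit and the condition of no overlap were met together by 170 genes, of which 137 were higher in metastatic tumours. In 62 of these (45.3%) the mean of normal glands lay above the midpoint of the tumour groups, that is, nearer to the metastatic tumours, as for Ntrk3, Mme and Myh11. The other 33 genes were lower in metastatic tumours, and in 25 of them (75.8%) the normal mean lay on the metastatic side. The same shares over all genes were not counted, so these counts only describe the 170 genes. The glands also differed from all tumours in adipocyte genes such as Adipoq (10.25 to 11.22 in the glands, 4.91 to 7.06 in the tumours). Predicted or uninformative symbols made up 14 of the 170.

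The count of genes past the threshold moved most with non-metastatic tumour 3. With this tumour left out, 40 genes passed the threshold (0.229% of those tested), 36 of them higher and 4 lower in metastatic tumours, and 2 had uninformative symbols. Non-metastatic tumour 3 was nearer to the mean of the metastatic tumours than to the rest of its group in 37 of the 40. It lay between the groups in 18, within the range of the metastatic tumours in 9 and beyond them in 13. All 40 except Coch missed the threshold with this tumour included. Picking them thus favoured genes in which it departed from the rest of its group, and no share over all genes was counted. Tfap2b, a transcription factor of the AP-2 family, measured 5.77, 4.34 and 9.88 in non-metastatic tumours and 9.56, 8.76 and 9.26 in metastatic tumours. Slit2, a secreted guidance protein, measured 7.71, 7.58 and 9.70 against 9.95, 9.60 and 10.18. In both genes the third non-metastatic tumour stood with the metastatic group and the other two far below. Tgfb1i1, a focal adhesion protein also called Hic-5 that is abundant in smooth muscle, measured 7.01, 6.57 and 8.81 against 9.13, 9.69 and 9.74. Cacna2d1, an accessory subunit of calcium channels, measured 6.09, 5.58 and 6.89 against 7.92, 8.31 and 8.00, and Fgf1, a fibroblast growth factor, 6.86, 6.70 and 7.44 against 8.08, 8.32 and 7.83. In these 3 the third tumour was the highest of its group but still below every metastatic tumour. The 4 lower genes were Tnfsf8, Plaur, Got1 and Fndc3a. Plaur, the urokinase receptor, measured 7.79, 8.10 and 6.76 against 6.58, 6.71 and 6.74. Got1, the cytosolic aspartate aminotransferase, measured 9.77, 9.70 and 8.57 against 8.58, 8.65 and 8.40. Both lay at the metastatic level in non-metastatic tumour 3. Without any other single array the count lay between 0 and 2, the latter 0.0114% of the genes tested. Gphb5, a glycoprotein hormone subunit, joined Coch without non-metastatic tumour 2, where it measured 5.35 against 8.21 and 8.05 in non-metastatic tumours 1 and 3. Atp13a5, a P-type ATPase, joined it without metastatic tumour 3, at 5.50, 5.07 and 5.30 against 7.39, 7.57 and 5.67.

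**Figure D3:**
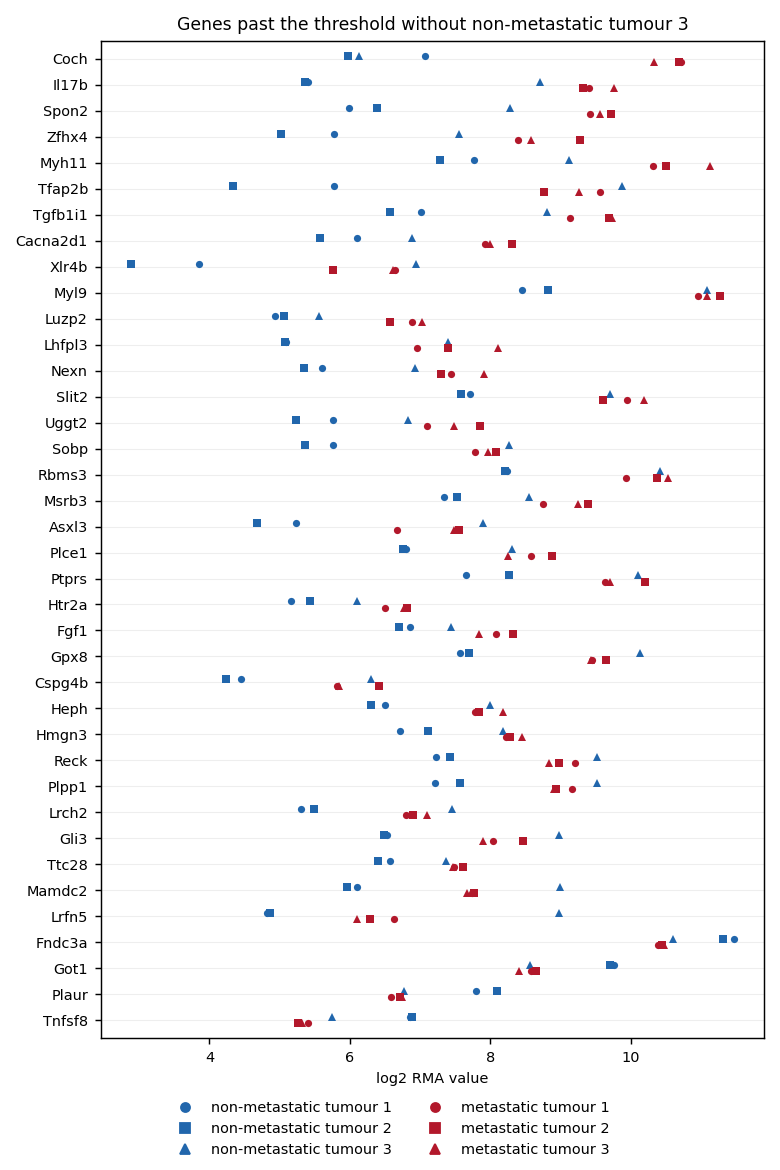
Log2 RMA values (horizontal axis) in the 6 tumours for the 38 genes with informative symbols that passed the threshold when non-metastatic tumour 3 was left out, ordered by the difference with all tumours. Blue triangles mark non-metastatic tumour 3, which lies nearer to the metastatic mean in 37 of all 40 genes. Non-metastatic tumours 1 and 2 lie together on the far side. Leaving tumour 3 out when picking the genes fixes much of this layout in advance.

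Genes of the contractile apparatus, shared by myoepithelial cells, smooth muscle and pericytes, had the highest median of the cell type lists. All 16 genes of the list (actin, myosin, their regulators and partners) were tested, 0 passed the adjusted threshold, 15 had a positive difference, and 10 were higher at an unadjusted p under 0.05, against 2.97% of all genes. The groups did not overlap in 8, all higher in metastatic tumours, against 4.41% of all genes. These counts are not independent of the list, which was written with earlier results of these data known. The median difference was 0.98 against -0.02 over all genes tested, and between 0.78 and 1.22 without each tumour in turn. Cnn1, the actin-binding protein calponin, measured 6.48, 6.74 and 9.24 in non-metastatic tumours and 10.08, 10.02 and 10.64 in metastatic tumours. Myh11, the smooth muscle myosin heavy chain, measured 7.77, 7.29 and 9.12 against 10.32, 10.50 and 11.13. Acta2, smooth muscle actin, measured 10.67, 10.72 and 12.40 against 12.71, 12.81 and 13.03. In all 3 genes the third non-metastatic tumour came closest to the metastatic tumours without reaching them. Actg2, the enteric smooth muscle actin, measured 6.64, 5.86 and 7.80 against 8.26, 8.63 and 9.55, and Tagln, transgelin, 8.32, 7.45 and 9.54 against 9.68, 9.78 and 9.94. Mylk, the kinase that phosphorylates the myosin light chain, measured 6.44, 5.49 and 7.41 against 7.74, 7.90 and 7.69. Myl9, that light chain, measured 8.45, 8.82 and 11.09 against 10.96, 11.27 and 11.09, and here non-metastatic tumour 3 lay within the metastatic group. Myocd, the coactivator of serum response factor that drives many of these genes in smooth muscle, measured 6.16, 5.77 and 6.27 against 7.47, 6.02 and 8.10, so metastatic tumour 2 did not share the higher values of metastatic tumours 1 and 3. Des, desmin of smooth and skeletal muscle, was the exception in sign, at 7.40, 6.40 and 8.44 against 6.65, 7.40 and 6.61. The list score, the mean over the tested genes of each gene's deviation from its mean over the 6 tumours, was -0.87, -0.99 and 0.24 in non-metastatic tumours 1, 2 and 3 and 0.46, 0.43 and 0.72 in metastatic tumours 1, 2 and 3. The scores of the groups did not overlap, and the third non-metastatic tumour lay closer to the metastatic tumours than to its own group. The score of the normal glands was 0.16 to 0.29. A list of 8 pericyte genes, from the other cells that carry this apparatus, had scores of -0.48, -0.29 and 0.35 in the non-metastatic and -0.26, 0.77 and -0.09 in the metastatic tumours, and its part in the result was not tested.

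Serum response factor binds the CArG box, an element of promoters of contractile genes. RefSeq promoter windows (assembly GRCm38.p6, 250 bases before to 50 after the annotated start) were at hand for 12 of the 16 genes. A CArG box on either strand was found in 1 of these 12 (8.33%), against 215 of 13499 tested genes with a window (1.59%). The stretch of 170 bases before the start of Myl9, at chr2:156775294-156775463 on the plus strand, is shown because it holds that match, in capitals, whose first base lies 161 bases before the start.
Myl9: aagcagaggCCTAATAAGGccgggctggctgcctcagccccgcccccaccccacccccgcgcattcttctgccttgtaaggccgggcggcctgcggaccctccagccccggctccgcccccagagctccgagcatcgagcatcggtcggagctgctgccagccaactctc
A match describes the letters in this window, and elements farther from the start were not searched.

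Basal epithelial genes had mostly positive differences, with overlap between the groups. Of 11 tested keratins and regulators of basal cells, 0 passed, 10 had a positive difference and 1 (Snai2) was higher at an unadjusted p under 0.05, against 2.97% of all genes. The groups overlapped in all 11. Overlap was the rule over all genes, of which 4.41% were higher and 5.84% lower without it. The median was 0.92, and it was 0.38 without non-metastatic tumour 1. Snai2, a transcription factor of basal mammary cells, measured 7.43, 8.84 and 10.79 in non-metastatic tumours and 10.22, 10.93 and 10.95 in metastatic tumours. Id4, a helix-loop-helix regulator, measured 6.89, 9.41 and 11.48 against 10.73, 11.40 and 10.81, and Trp63, the basal cell factor p63, 6.53, 8.96 and 9.40 against 8.93, 9.50 and 9.56. For Id4 and Trp63 it was non-metastatic tumour 1 that lay apart, below the other 5 tumours by more than 2 log2 units. Among keratins of basal cells, Krt14 measured 8.38, 9.41 and 9.53 against 11.17, 9.99 and 8.92 and Krt17 6.14, 9.95 and 8.19 against 8.18, 10.24 and 7.74, with no order between the groups. The list of laminins, integrins and hemidesmosome proteins, which tie basal cells to the basement membrane, had a median of 0.33 (0.16 to 0.58 without each tumour), with 15 of 17 above 0. Of the 17, 2 were higher without overlap (4.41% of all genes), namely Lama3 and Lamb3, chains of laminin-332. Lama3 measured 6.97, 8.88 and 9.06 against 9.25, 9.65 and 9.85, and Lamb3 7.93, 8.72 and 8.57 against 9.18, 9.53 and 8.73, where the groups nearly touched.

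Hormone-sensing luminal regulators pointed in both directions. Of 12 tested, 0 passed, 7 were above 0, and the median was 0.14 (0.09 to 0.43 without each tumour). Foxa1, the pioneer factor of oestrogen receptor binding, measured 6.47, 5.42 and 8.04 in non-metastatic tumours and 8.47, 9.91 and 10.64 in metastatic tumours, a difference of 3.03 (SE 0.77). Pgr, the progesterone receptor, measured 5.60, 5.21 and 7.04 against 7.33, 7.21 and 8.66. For both the groups did not overlap, and non-metastatic tumour 3 was the highest of its group. Esr1, the oestrogen receptor itself, measured 6.93, 7.63 and 8.12 against 7.18, 6.16 and 8.96, with the lowest value in metastatic tumour 2. Gata3, the luminal master regulator, measured 9.76, 9.94 and 9.66 against 9.76, 7.11 and 10.63. Its values lay within 1 log2 unit of each other in 5 tumours and lower by more than 2 log2 units in metastatic tumour 2. Luminal progenitor genes (12 tested, median -0.04) and general epithelial genes (19 tested, median -0.02) were centred near 0, and both medians turned sign without metastatic tumour 2. Epcam, an adhesion molecule of all epithelia, measured 11.79, 11.85 and 11.48 against 11.65, 11.36 and 11.66, with less than 0.5 log2 units between any pair of tumours.

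As a list, milk genes were far lower in metastatic tumour 2 than in the other tumours. Of 16 tested, 0 passed and 15 were below 0, with a median of -0.94, and without metastatic tumour 2 the median was 0.13. Csn1s1, a casein, measured 13.10, 13.16 and 12.68 in non-metastatic tumours and 13.21, 7.72 and 12.69 in metastatic tumours. Lalba, the lactose synthase subunit alpha-lactalbumin, measured 12.52, 12.15 and 9.61 against 12.96, 6.69 and 10.96. Muc15, a mucin of the milk fat globule membrane, measured 11.90, 11.84 and 11.49 against 11.86, 6.23 and 12.07. Metastatic tumour 2 was the lowest in each of the 3, and metastatic tumours 1 and 3 lay among or above the non-metastatic tumours. Metastatic tumour 2 scored -2.27 on this list, and the other tumours -0.41 to 1.16. Normal gland 2 scored -2.04, and normal glands 1 and 3 scored 0.79 and 1.04. Glycam1, a further member, was nearly as low in metastatic tumour 3 (8.60) as in metastatic tumour 2 (8.30).

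Metastatic tumour 2 also had very high values of genes known from salivary glands. Klk1, a tissue kallikrein, measured 5.69, 3.96 and 3.87 in non-metastatic tumours and 4.32, 13.49 and 5.78 in metastatic tumours. Muc19, a gel-forming mucin of salivary mucous cells, measured 5.62, 5.62 and 5.41 against 5.48, 12.10 and 5.77. Dcpp2, a demilune cell and parotid protein, measured 4.65, 6.14 and 5.56 against 7.31, 13.74 and 6.50, and Pax9, a paired box transcription factor, 5.91, 5.91 and 5.71 against 5.74, 10.28 and 5.66. Each was more than 4 log2 units higher in metastatic tumour 2 than in any other tumour. A list of salivary secretory genes, written after these values were seen, had 22 genes on the array, of which 16 passed the filter. Its score was 3.38 in metastatic tumour 2, 0.26 and -0.86 in metastatic tumours 1 and 3, and -0.81, -0.48 and -1.49 in the non-metastatic tumours. Amy1, the salivary amylase, did not share this, at 5.07, 4.77 and 4.64 against 4.77, 5.04 and 4.47, nor did the proline-rich protein Prb1, at 4.35, 5.18 and 4.46 against 5.06, 5.44 and 4.79. The median difference of the tested genes of the list was 1.39, and 0.19 without metastatic tumour 2. Genes of the Klk1, Dcpp and secretoglobin families have near-identical copies, so a probe set may read more than the gene it is named for. The part of such RNA in the results that rest on metastatic tumour 2 was not tested.

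The secretoglobin list shares genes with the salivary list and had the highest median of all lists, 1.71, over 6 tested genes of 13 on the array. The other 7 genes did not pass the filter on low values, which keeps a gene that exceeds it on only 3 arrays, so the median is not that of the whole family. Scgb2b27 measured 7.17, 7.86 and 4.29 against 9.62, 13.35 and 5.91, and Scgb2b7 4.94, 5.69 and 4.41 against 6.63, 11.33 and 4.71, with metastatic tumour 2 on top in both. Scgb3a1, a secretoglobin of airway and mammary epithelium, measured 6.22, 6.22 and 7.82 against 6.27, 6.25 and 10.37, and here metastatic tumour 3 lay apart. The list median was 0.99 without metastatic tumour 2 and 2.28 without metastatic tumour 1.

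Wnt target genes had mostly positive differences of small size. Of 23 target and feedback genes, 0 passed, 16 were above 0, 3 were higher at an unadjusted p under 0.05 (2.97% of all genes), and 5 were higher without overlap (4.41% of all genes). The median was 0.12 and lay between 0.03 and 0.48 without each tumour, highest without non-metastatic tumour 3. Dkk3, a dickkopf family protein, measured 7.96, 6.88 and 8.19 in non-metastatic tumours and 8.55, 8.78 and 8.76 in metastatic tumours. Sox9, a factor of mammary progenitor cells, measured 11.13, 10.41 and 10.96 against 11.47, 11.75 and 11.38, and Ccnd1, the cell cycle regulator cyclin D1, 10.07, 11.56 and 11.88 against 11.94, 12.19 and 11.90. The gap for Sox9 was under 0.4 log2 units. For Ccnd1 the groups all but touched, at 11.88 in non-metastatic tumour 3 and 11.90 in metastatic tumour 3. Nkd2 and Wif1, inhibitors that Wnt signalling induces, overlapped, with non-metastatic tumour 3 inside the metastatic range. Nkd2 measured 10.44, 9.64 and 11.25 against 11.57, 12.12 and 10.97, and Wif1 9.68, 10.21 and 12.14 against 12.20, 11.76 and 12.82. Axin2, the standard readout of beta-catenin activity, measured 8.55, 8.17 and 8.61 against 8.48, 8.92 and 8.61, with overlap. The score of the 23 genes was -0.38, -0.48 and 0.36 in the non-metastatic tumours, 0.09, 0.28 and 0.14 in the metastatic tumours, and -1.01 to -0.84 in the normal glands. Among 37 tested ligands, receptors and modulators the median was 0.09, and Fzd8, a Frizzled receptor, measured 5.89, 6.07 and 6.55 against 6.55, 7.17 and 6.71. Its groups all but touched, at 6.548 in non-metastatic tumour 3 and 6.552 in metastatic tumour 1.

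Other growth factor pathways had small medians, each with 0 genes past the threshold. The FGF list had a median of 0.17 over 28 genes (0.13 to 0.23 without each tumour) with 21 above 0. Of the 28, 3 were higher at an unadjusted p under 0.05 (Fgf1, given above, Fgfr4 and Spry1), against 2.97% of all genes. Fgfr4, an FGF receptor, measured 5.70, 5.54 and 5.58 in non-metastatic tumours and 6.03, 5.94 and 6.29 in metastatic tumours. These were low signals, near the array medians of 5.80 to 5.94. Spry1, an inhibitor that ERK signalling induces, measured 8.27, 7.94 and 8.83 against 9.16, 9.87 and 8.67, overlapping through non-metastatic tumour 3. The Notch list had a median of 0.29 over 20 genes (0.15 to 0.44), with the ligand Jag2 at 7.26, 8.39 and 9.39 against 9.01, 9.77 and 9.03 and the target Nrarp at 6.92, 7.89 and 8.39 against 8.34, 8.40 and 8.56. For these Notch genes non-metastatic tumour 1 was the lowest tumour. The TGF-beta and BMP list had a median of 0.06 over 31 genes, and 5 were higher without overlap, against 4.41% of all genes. Bmpr1b, a type I BMP receptor, measured 4.27, 3.60 and 4.01 against 5.79, 5.09 and 6.77, a difference of 1.93 (SE 0.39). Its normal glands were also low, at 4.71, 4.44 and 5.02. The filter on low values needs only 3 arrays, so Bmpr1b may have been tested mainly through its metastatic values. Tgfbr3, betaglycan, measured 8.82, 9.19 and 9.14 against 9.47, 10.10 and 9.71. Among hedgehog genes (12 tested, median 0.09), Gas1, a co-receptor, measured 6.60, 7.51 and 8.38 against 8.57, 8.90 and 8.56. Igfbp2, a binding protein of insulin-like growth factors, measured 7.94, 6.63 and 9.09 against 9.19, 9.74 and 9.64. The groups did not overlap for Bmpr1b, Tgfbr3, Gas1 and Igfbp2, while the IGF axis as a whole had a median of 0.10 over 13 genes. Among ErbB ligands and receptors (14 tested) the median was 0.04, and -0.05 to 0.10 without each tumour. The ligand Nrg1 measured 6.00, 7.51 and 8.94 against 8.38, 9.15 and 9.74, and non-metastatic tumour 3 lay inside the metastatic range. Of 7 neurotrophin genes, Ntrk3 was the single member without overlap, against 4.41% of all genes higher without overlap. Its relative Ntrk2 measured 5.53, 5.86 and 6.43 against 6.06, 6.53 and 5.89, and the low-affinity receptor Ngfr 5.83, 7.31 and 6.49 against 6.61, 8.16 and 7.18, both overlapping.

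Among vascular and stromal genes, single tumours stood at the ends of the range. Of 15 blood endothelial genes 14 lay above 0, at a median of 0.36 (0.09 without metastatic tumour 2). The groups overlapped in all 15, and over all genes 4.41% were higher and 5.84% lower without overlap. Pecam1, an endothelial adhesion molecule, measured 9.03, 8.48 and 9.54 in non-metastatic tumours and 9.14, 10.22 and 9.27 in metastatic tumours. Rgs5, a pericyte marker, measured 10.07, 10.32 and 11.62 against 11.11, 12.11 and 11.37. Metastatic tumour 2 was highest and non-metastatic tumours 1 and 2 were lowest in both. Among 6 lymphatic genes, 2 (Pdpn and Reln) were higher at an unadjusted p under 0.05, against 2.97% of all genes. Pdpn, podoplanin, which basal mammary cells also express, measured 8.46, 8.18 and 10.08 against 9.87, 10.84 and 9.97. Prox1, the defining lymphatic factor, measured 6.59, 6.58 and 5.30 against 5.90, 5.60 and 5.53, overlapping and with a negative difference. Collagen and fibroblast genes (21 tested, median 0.17) ranged from -0.49 to 0.73 as tumours were left out, turning sign. Lum, the collagen-binding proteoglycan lumican, measured 7.47, 4.20 and 9.38 against 8.61, 8.71 and 5.61, and Col1a1, the main fibrillar collagen, 10.50, 7.97 and 11.13 against 10.49, 10.36 and 8.87. Both were lowest in non-metastatic tumour 2, whose list score was -1.52. Of 15 adipocyte genes 7 were above 0 and 8 below, and Adipoq, the adipocyte hormone adiponectin, measured 7.06, 4.91 and 5.30 against 5.01, 5.88 and 5.69, highest in non-metastatic tumour 1. Cxcl12, a stromal chemokine, measured 7.73, 8.05 and 7.39 against 8.57, 9.55 and 9.82, a difference of 1.59 (SE 0.38) without overlap, within a chemokine list whose median was -0.27 over 29 genes.

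Skeletal muscle genes were higher in non-metastatic tumours 1 and 3 than in the other 4. All 16 had a negative difference, with a median of -0.93 (-1.58 to -0.47). Acta1, skeletal actin, measured 9.20, 7.08 and 10.50 in non-metastatic tumours and 6.47, 7.90 and 7.05 in metastatic tumours, and Myh4, a fast myosin, 7.82, 4.09 and 8.41 against 4.37, 5.05 and 4.65. The list scores were 0.71, -0.71 and 1.45 in non-metastatic tumours 1, 2 and 3, between -0.63 and -0.32 in metastatic tumours, and 3.61 in normal gland 2. Des, the contractile gene with a negative difference, is also a muscle gene. The part of muscle tissue in other results was not tested.

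Interferon-stimulated genes were high in non-metastatic tumour 1 and low in the other 5. Of 22 tested, 0 passed, 21 were below 0 and 8 were lower without overlap, against 5.84% of all genes. The median was -1.21, and -0.23 without non-metastatic tumour 1. Ifit1, an RNA-binding antiviral protein, measured 10.96, 6.91 and 7.54 in non-metastatic tumours and 6.83, 6.68 and 6.54 in metastatic tumours. Isg15, a ubiquitin-like modifier, measured 8.99, 6.76 and 7.25 against 6.61, 6.06 and 6.48. Oas3, an oligoadenylate synthetase that senses double-stranded RNA, measured 9.04, 5.88 and 6.13 against 5.72, 5.75 and 5.87, and Rsad2, the antiviral enzyme viperin, 8.43, 5.74 and 6.13 against 5.94, 5.83 and 6.26. Non-metastatic tumour 1 was the highest tumour for all 4, by more than 1 log2 unit. Among the other 5 tumours, non-metastatic tumour 3 came next for Ifit1, Isg15 and Oas3, and metastatic tumour 3 for Rsad2. Non-metastatic tumour 1 scored 2.30 on this list and the other tumours -0.76 to -0.13, with normal glands at -0.40 to -0.30.

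The interferon-stimulated response element is the site at which the factor complex ISGF3 and other IRF proteins bind. Its core was searched as GAAA, any 2 bases (NN) and GAAA, on either strand, in the RefSeq promoter windows, which were at hand for 16 of the 22 genes. It was found in 9 of the 16 (56.2%), against 483 of 13499 tested genes with a window (3.58%), and in 1 of 12 contractile genes (8.33%). The CArG box was found in 0 of the 16. The 130 bases before the start of 4 genes are shown, with each match in capitals, because these genes had their high values in non-metastatic tumour 1. On the minus strand lie Isg15 (chr4:156200819-156200948), Oas3 (chr5:120777660-120777789) and Rsad2 (chr12:26456453-26456582), and on the plus strand Ifit1 (chr19:34640759-34640888).
Isg15: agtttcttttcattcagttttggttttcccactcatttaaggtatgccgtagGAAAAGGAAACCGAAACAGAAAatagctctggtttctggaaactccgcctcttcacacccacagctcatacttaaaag
Ifit1: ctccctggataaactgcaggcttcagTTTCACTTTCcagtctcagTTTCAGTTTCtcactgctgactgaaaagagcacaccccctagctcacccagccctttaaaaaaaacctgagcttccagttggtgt
Oas3: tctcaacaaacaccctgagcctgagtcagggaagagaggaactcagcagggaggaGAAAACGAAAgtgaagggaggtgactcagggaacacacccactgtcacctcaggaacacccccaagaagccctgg
Rsad2: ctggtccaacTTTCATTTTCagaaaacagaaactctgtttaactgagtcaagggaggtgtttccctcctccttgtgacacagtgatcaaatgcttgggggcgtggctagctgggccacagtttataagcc
Isg15 holds 3 matches that overlap each other, starting 78, 72 and 66 bases before the start. Ifit1 holds 2, at 104 and 85 bases, Oas3 holds 1 at 75 bases and Rsad2 1 at 120 bases. Those of Ifit1 and Rsad2 lie on the strand opposite to the gene. A match describes letters in the window and is not evidence of a bound site.

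Other genes that interferon induces were also highest in non-metastatic tumour 1. Of 11 tested interferon-inducible GTPases, a list added after these values were seen, all were below 0 and the median was -0.995, or -0.0028 without non-metastatic tumour 1. Igtp measured 10.82, 6.93 and 7.04 in non-metastatic tumours and 6.76, 6.37 and 6.49 in metastatic tumours. Of 14 MHC class I genes 13 were below 0, with a median of -0.57, or -0.19 without that tumour. Tap1, the peptide transporter, measured 10.93, 8.26 and 9.17 against 8.49, 8.28 and 8.42, and H2-K1, a class I heavy chain, 10.98, 9.14 and 10.40 against 9.39, 9.32 and 9.16. Non-metastatic tumour 3 came next after tumour 1 in both. MHC class II genes (7 tested, median -0.18) and T and NK cell genes (16 tested, median -0.10) had smaller medians, which turned positive without non-metastatic tumour 1. Cd3g, a chain of the T cell receptor complex, measured 8.15, 6.92 and 6.63 against 6.77, 6.81 and 7.01, highest in tumour 1. Macrophage genes (15 tested, median 0.02) and dendritic cell genes (9 tested, median -0.06) had medians near 0, which turned sign as tumours were left out. The groups overlapped in all but 1 gene of each list. The 1 macrophage gene was lower (5.84% of all genes) and the 1 dendritic cell gene higher (4.41% of all genes). Neutrophil genes (7 tested, median -0.61) were high in non-metastatic tumour 2, where S100a8, a subunit of calprotectin, measured 8.38 against 5.79 and 4.78 in non-metastatic tumours 1 and 3 and 5.93, 4.86 and 5.00 in metastatic tumours. Their median was -0.08 without that tumour.

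Genes of protein synthesis and turnover had small negative differences in nearly every member. Of 24 genes of ribosome biogenesis, 0 passed, 22 were below 0, 4 were lower at an unadjusted p under 0.05 (2.1% of all genes), and 13 were lower without overlap (5.84% of all genes). The median was -0.25, with a range of -0.28 to -0.19 as tumours were left out. Nop56, a core protein of small nucleolar ribonucleoproteins, measured 10.03, 9.79 and 9.79 in non-metastatic tumours and 9.57, 9.40 and 9.49 in metastatic tumours. Polr1a, the largest subunit of RNA polymerase I, measured 9.34, 9.63 and 9.26 against 9.00, 9.00 and 9.01. The groups were apart by no more than 0.3 log2 units in either gene. Myc, the factor that drives this programme, measured 11.02, 10.28 and 10.54 against 10.52, 10.46 and 10.99, with overlap. Of 30 proteasome subunits, a list added after such values were seen, 29 were below 0 and 16 lower without overlap (5.84% of all genes), with a median of -0.24 (-0.30 to -0.17). Psmb4, a subunit of the catalytic core, measured 8.80, 8.74 and 8.72 against 8.49, 8.23 and 8.37, and Psma7 10.72, 10.58 and 10.70 against 10.44, 9.95 and 10.26. The unfolded protein response and amino acid list had a median of -0.13 over 23 genes, 21 of them below 0. Hspa5, the chaperone BiP, measured 10.13, 10.30 and 9.95 against 9.83, 9.47 and 9.85, and Psat1, an enzyme of serine synthesis, 9.33, 8.89 and 8.64 against 8.57, 7.39 and 8.32, both lower without overlap.

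Hypoxia, metabolic and cell cycle lists had medians below 0. Hypoxia and glycolysis genes had a median of -0.38 over 23 genes (-0.49 to -0.21), with 20 below 0 and 4 lower at an unadjusted p under 0.05, against 2.1% of all genes. Hk2, a hexokinase, measured 8.61, 9.55 and 8.13 in non-metastatic tumours and 7.91, 7.67 and 7.85 in metastatic tumours, and Pkm, pyruvate kinase, 12.16, 12.24 and 12.06 against 11.81, 11.56 and 11.97, both without overlap. Slc2a1, the glucose transporter GLUT1, measured 10.88, 11.67 and 10.35 against 10.36, 9.43 and 10.50 with overlap. Non-metastatic tumour 2 was the highest for Hk2 and Slc2a1, and its list score was 0.67 against -0.43 to 0.0016 in the other 5. Cholesterol and fatty acid synthesis (21 tested, median -0.25) was lower without overlap for 0 genes, against 5.84% of all genes. Sqle, squalene epoxidase, measured 9.40, 9.12 and 8.72 against 9.07, 7.97 and 8.18. Mitosis genes (25 tested) had 24 members below 0 and a median of -0.13, which was 0.07 without metastatic tumour 2 and 0.05 without non-metastatic tumour 3. Plk1, a mitotic kinase, measured 9.27, 8.93 and 9.38 against 9.50, 8.38 and 8.79, lowest in metastatic tumour 2. Replication genes (26 tested, median -0.24) kept their sign, with Mcm2, a helicase subunit, at 8.42, 9.06 and 9.20 against 8.80, 8.42 and 8.42.

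Lists of genes named for metastasis had medians near 0. Promoters of metastasis (23 tested) had a median of 0.08 and suppressors (16 tested) of -0.09, both with 0 genes past the threshold and both turning sign as tumours were left out. Nme1, described as the first metastasis suppressor gene, measured 8.13, 8.28 and 7.99 in non-metastatic tumours and 7.92, 7.24 and 7.44 in metastatic tumours, with a difference of -0.60 (SE 0.19) and no overlap. Timp3, an inhibitor of matrix proteases, measured 9.89, 8.07 and 10.27 against 11.84, 11.59 and 9.85, lowest in non-metastatic tumour 2. Genes of mesenchymal transition had a median of 0.34 over 16 (0.13 to 0.63), with Cdh2, N-cadherin, at 7.12, 6.65 and 7.80 against 8.23, 8.43 and 8.13 without overlap. Cdh1, E-cadherin, measured 11.53, 11.54 and 11.73 against 11.62, 11.53 and 11.62, with less than 0.3 log2 units between any pair of tumours. Twist1 measured 6.97, 6.39 and 7.51 against 7.33, 7.50 and 7.44, with non-metastatic tumour 3 the highest of the 6. Matrix proteases and inhibitors had a median of -0.10 over 25, in which Plat, tissue plasminogen activator, measured 8.22, 8.41 and 9.26 against 9.16, 10.88 and 11.07, higher mainly in metastatic tumours 2 and 3. Guidance genes (ephrins, semaphorins, netrins and Slits) had 35 of 43 above 0 and a median of 0.26 (0.12 to 0.47), while Hox genes had a median of -0.15 over 24.

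Further genes stood apart in 1 tumour. Klk7, a protease of the horny layer of skin, measured 6.17, 11.31 and 5.91 in non-metastatic tumours and 6.30, 5.90 and 5.81 in metastatic tumours, and Krtdap, a protein of differentiating keratinocytes, 5.99, 10.32 and 5.72 against 6.13, 5.54 and 5.55. Both were highest in non-metastatic tumour 2 among the tumours and also high in normal gland 2, where Klk7 lay at 10.30 and Krtdap at 12.42. The list of 14 tested genes of keratinised epidermis scored -0.33, 0.88 and -0.44 in the non-metastatic tumours, 0.48, -0.20 and -0.39 in the metastatic tumours and 2.77 in normal gland 2, with a median difference of -0.09 (-0.16 to 0.26 without each tumour). Its members did not share 1 layout. Krt10, an epidermal keratin, measured 6.47, 6.65 and 6.73 against 6.71, 6.50 and 6.32, and Calml3, a calmodulin-like protein of epithelia, 8.22, 8.93 and 7.57 against 10.57, 9.98 and 9.16, higher in metastatic tumours without overlap. Metastatic tumour 1 was high in Tmprss11d, an airway trypsin-like protease, at 5.80, 4.85 and 4.85 against 10.20, 4.85 and 5.00, and Krt6a, a keratin of stratified epithelium, at 8.19, 9.38 and 8.00 against 11.52, 8.06 and 6.65. Metastatic tumour 3 was high in Rmst, a long non-coding RNA, at 5.55, 5.61 and 5.45 against 5.60, 6.00 and 8.75. Non-metastatic tumour 3 was high in Fbp1, the gluconeogenic fructose-bisphosphatase, at 5.14, 5.37 and 8.99 against 5.77, 5.37 and 5.67, and in Tubb3, neuronal tubulin, at 6.06, 6.37 and 8.88 against 6.02, 5.93 and 6.28. In Klk7, Krtdap, Tmprss11d, Krt6a, Rmst, Fbp1 and Tubb3 a single tumour stood at least 2 log2 units above the next.

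Large differences were counted again with each tumour left out. For almost any gene, leaving out some tumour lowers the difference, so genes just above 1 can fall under it without resting on 1 tumour. Of 400 genes with a difference of 1 or more in size, 105 (26.2%) stayed at 1 or more without each of the 6 tumours in turn, 100 of them higher and 5 lower. The difference fell under 1 in 163 genes without non-metastatic tumour 1, in 159 without metastatic tumour 2 and in 126 without non-metastatic tumour 2. The same count was 49 without metastatic tumour 3, 34 without metastatic tumour 1 and 22 without non-metastatic tumour 3. A stricter count took genes whose smallest such difference was under 0.5 of the whole. It was reached without non-metastatic tumours 1, 2 and 3 in 61, 31 and 6 genes. For metastatic tumours 1, 2 and 3 these counts were 9, 55 and 2. Of 50 gene lists, 30 kept the sign of their median without every tumour in turn. Among 22 lists with a median of 0.2 or more in size, 19 kept it, the exceptions being milk genes, mast cell genes and pericyte genes. The spread itself also differed, being larger among non-metastatic than among metastatic tumours in 10784 genes (61.7%), with a median SD of 0.19 against 0.14 (n = 3 each).

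**Figure D4:**
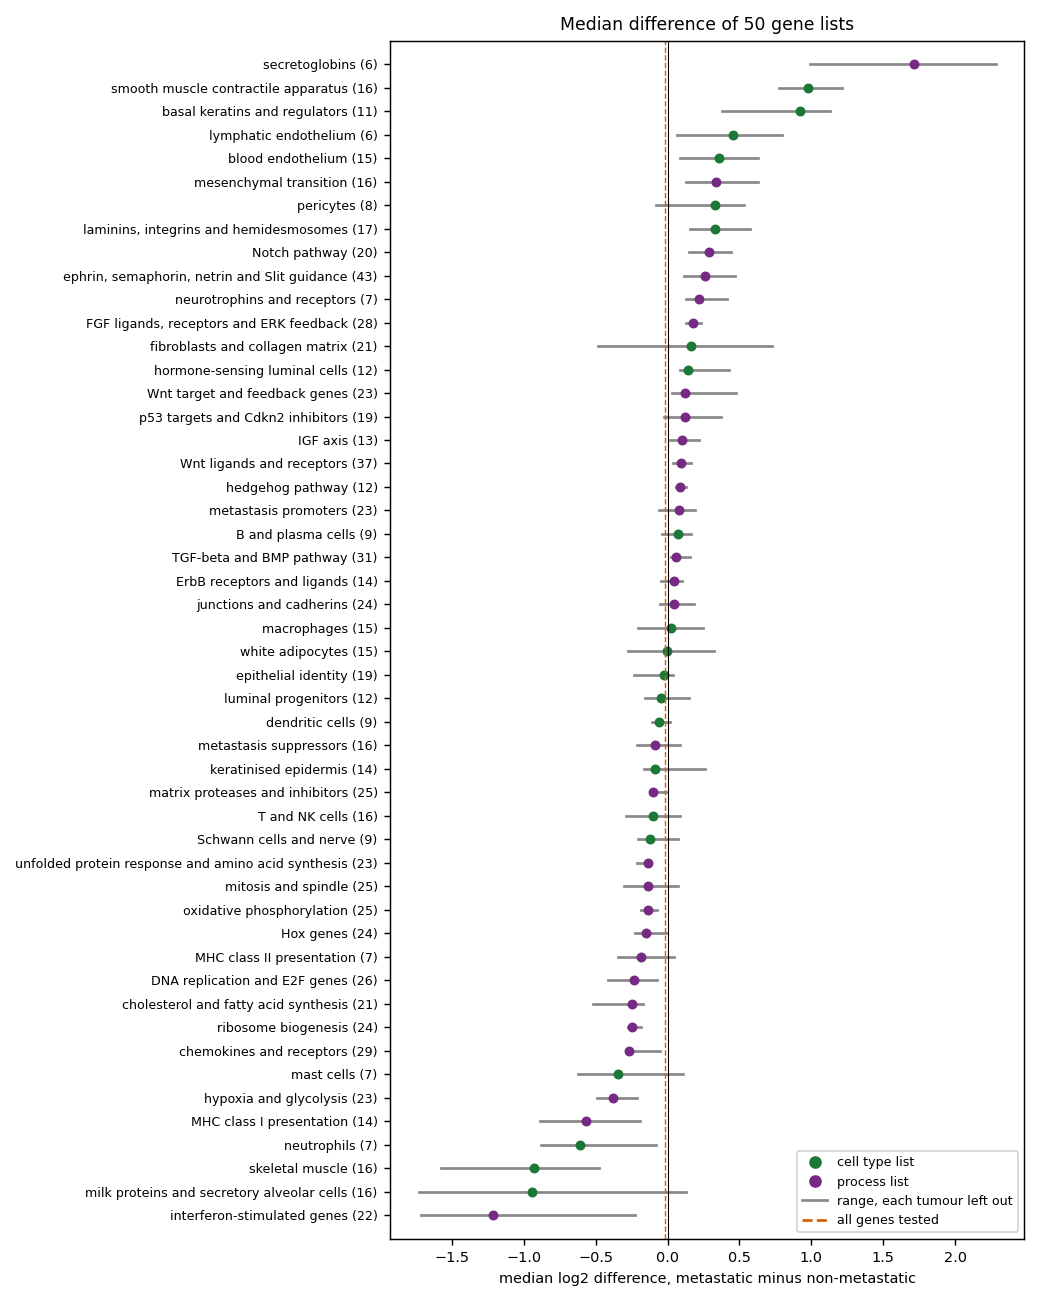
Median log2 difference, metastatic minus non-metastatic (horizontal axis), of 50 gene lists, with the number of tested genes in brackets. The lists were written with earlier results of these data known. Points are the medians with all tumours, green for cell types and purple for processes, grey lines run from the lowest to the highest median with each of the 6 tumours left out, and the dashed line is the median of all genes tested, -0.02. Contractile genes, at 0.98, keep a narrow line away from 0, while the line of milk genes crosses 0.

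**Figure D5:**
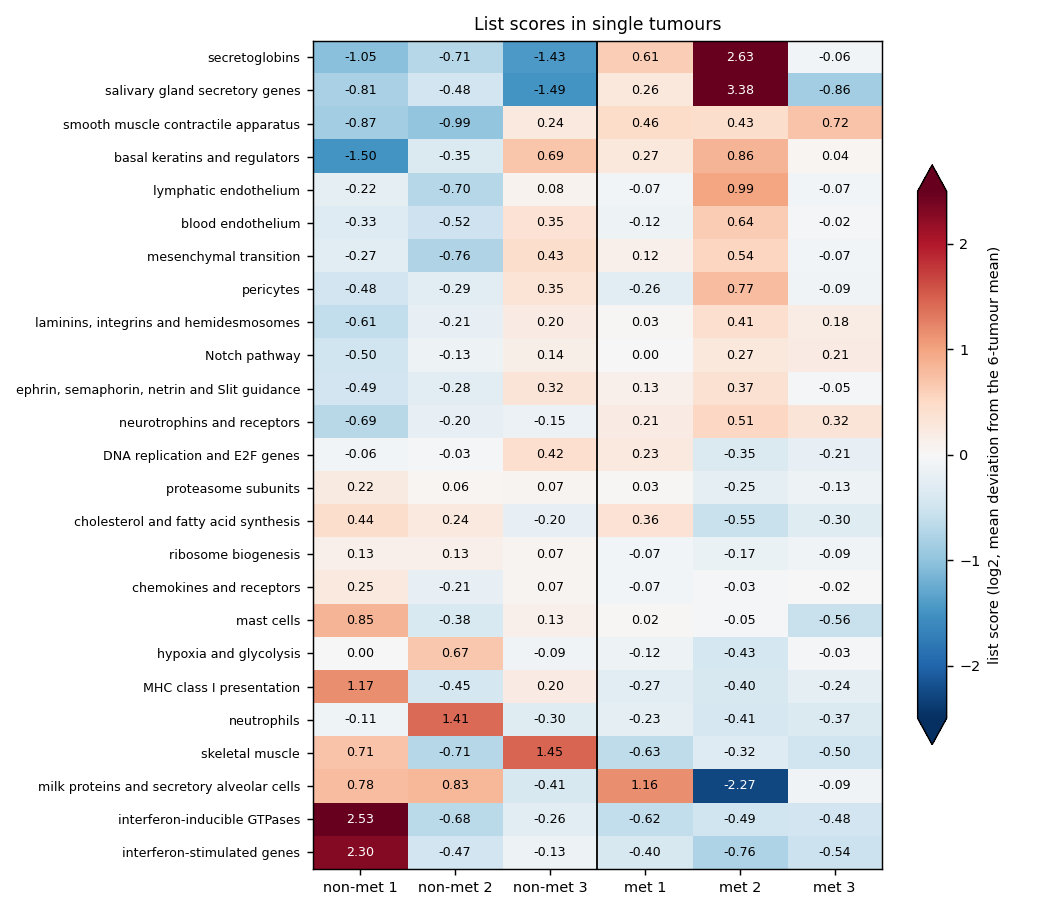
Scores of the lists with a median of 0.2 or more in size (rows, from the highest median to the lowest, including 3 lists added after the values were seen) in the 6 tumours (columns). The colour and the printed number give the mean deviation of the list's tested genes from their mean over the 6 tumours, in log2 units. Interferon-stimulated genes stand out in non-metastatic tumour 1 (2.30), milk genes in metastatic tumour 2 (-2.27), and contractile genes part the first 2 non-metastatic tumours from the other 4.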

How the data were processed

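RNA from 9 mammary samples was hybridised to 1-colour expression arrays. The authors deposited log2 expression values normalised with RMA, per the submitters' processing notes, which give no version, and scanner intensities were not used here. Of 41345 probe sets, 23521 had 1 gene symbol, 1814 had several and 16010 had none listed. Each of 22180 genes was represented by its probe set of highest mean. Genes above the 30th percentile of their array on at least 3 arrays were kept, which left 17478. Array medians lay between 5.80 and 5.94, and the number of arrays limits the precision. The contrast, metastatic minus non-metastatic, was tested with limma 3.58.1 (R 4.3.3) in a model with 1 mean for each of 3 groups (6 residual degrees of freedom), moderated by eBayes, with Benjamini-Hochberg adjustment over all genes tested.

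The comparison and its gene lists were chosen with earlier results of these data known, and 4 lists (salivary genes, interferon-inducible GTPases, liver plasma proteins and proteasome subunits) were added after the values were seen. Named genes are Wnt1, genes past the threshold, the 15 highest and 15 lowest differences among genes without overlap whose unadjusted p was under 0.01, up to 15 genes for each array left out, genes with the largest gaps in a single tumour, and members of the lists with large differences or defining roles. Lists are described by counts and medians, with no test of a list. Alternatives were each array left out, other filters, normalisations and variance models, the tumours alone, age at collection and the replicate number as a block. Promoter windows came from RefSeq (assembly GRCm38.p6).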

Additional observations from a re-analysis of the deposited data

Results flagged for a closer look

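Genes removed by the filter on low values entered no comparison, and some of them were far above the normal glands in single tumours. In metastatic tumour 2, 18 removed genes lay 3 log2 units or more above the highest normal gland, against 3 in metastatic tumour 3, 2 in non-metastatic tumour 2 and 0 in the other 3 tumours. Scgb2b26, a secretoglobin, measured 3.39, 3.38 and 3.16 in the non-metastatic tumours and 3.34, 13.22 and 4.09 in the metastatic tumours. Pip, the prolactin-induced protein of exocrine glands, measured 3.97, 3.65 and 3.77 against 5.32, 12.95 and 4.38. Bpifa2, a secreted protein of the parotid gland, measured 4.96, 4.86 and 4.73 against 4.64, 11.84 and 4.73. In each of these 3 genes metastatic tumour 2 was the one tumour away from the rest. In non-metastatic tumour 2, Serpina1c, an antitrypsin gene, lay at 7.96, against 3.12 to 5.11 in the other 5 tumours. Their part in other results was not tested.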

How the results depend on the processing

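Over 20 alternatives, 666 of 677 values of the 34 genes whose differences were compared kept direction and side of the threshold. Much of this was fixed in advance. Leaving out a normal gland or changing only the filter cannot move a difference. All of these genes but Coch missed the threshold with all arrays, many by far (limma adjusted p = 0.88 for Il17b, Spon2, Tnfsf8 and Zfhx4). The difference of Wnt1 ranged from -0.41 to 0.012 as each tumour was left out, turning sign without metastatic tumour 2. Coch lost its call in 5 settings, and Il17b, Myh11, Spon2, Tnfsf8 and Zfhx4 gained one without non-metastatic tumour 3. The number of genes past the limma threshold ranged from 0 to 40 as each of the 9 arrays was left out, with 2 without non-metastatic tumour 2 or metastatic tumour 3. It was 0 with only the 6 tumours in the fit (857 genes at an unadjusted p under 0.05) and 0 with age at collection as a covariate there (927 genes). It was 0 without normal gland 2, metastatic tumour 1 or metastatic tumour 2, where 924, 1107 and 464 genes had an unadjusted p under 0.05. The number at an unadjusted p under 0.01 was 173 with all arrays, 646 without non-metastatic tumour 3 and 92 without metastatic tumour 2. Median centring moved the median of all genes from -0.02 to -0.05. Of 1036 list medians, 1030 moved by less than the SD of the list scores within groups. Those without a normal gland could not move at all. That SD includes the tumour left out, so a list resting on 1 tumour can count as unmoved. The milk list did so at -0.94 and 0.13 without metastatic tumour 2. So did the interferon-stimulated list, at -1.21 and -0.23 without non-metastatic tumour 1. The Wnt target list moved to 0.48 without non-metastatic tumour 3. Tumours with the same replicate number did not deviate together (r = 0.09, -0.28 and -0.06), so the numbers were not read as pairs, and with the replicate number as a block 1 gene passed. Precision was limited by 3 arrays a group, and low signals near background have small differences on this scale.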

Other observations

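Liver plasma protein genes, a list added after the values were seen, had a median difference of -0.14 over 11 tested genes (-0.40 to 0.14 without each tumour). Alb, albumin, measured 5.79, 10.90 and 5.07 in non-metastatic tumours and 7.74, 5.56 and 6.17 in metastatic tumours, highest in non-metastatic tumour 2. Fgg, a fibrinogen chain, measured 6.31, 6.92 and 7.84 against 7.54, 4.24 and 9.78, and Hp, haptoglobin, 9.23, 9.69 and 11.15 against 10.47, 9.82 and 12.60, both highest in metastatic tumour 3. Oxidative phosphorylation genes had a median of -0.14 over 25, with 6 lower and 1 higher without overlap, against 5.84% and 4.41% of all genes. Genes of the p53 response and Cdkn2 inhibitors had a median of 0.12 over 19 (-0.02 to 0.37 without each tumour). All 19 overlapped between the groups, against 4.41% of all genes higher and 5.84% lower without overlap. Junction and cadherin genes had a median of 0.04 over 24 (-0.05 to 0.18 without each tumour). Mast cell genes had a median of -0.34 over 7, which was 0.10 without non-metastatic tumour 1. Il1b, the cytokine interleukin-1 beta, measured 7.21, 9.57 and 6.95 against 6.56, 6.45 and 6.13, highest in non-metastatic tumour 2 and without overlap.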
